A study of Sus scrofa with 14 samples.

Results

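Later and early passages of 2 porcine embryonic stem cell-like cell (pESCLC) lines in inhibitor media were compared by RNA-seq. The samples were 4 of the 14 in the series. Line B1 was grown in FLB2i (pESCLC-FLB2i) and sequenced at passages 3 and 6, and line C2 was grown in FL6i (pESCLC-FL6i) and sequenced at passages 3 and 9. Of the 19588 genes in the table, 14495 reached 10 normalized counts in 2 or more of these samples, and these were tested, and 11978 of them had a gene symbol.

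All 4 samples were pig cells that came from blastocyst outgrowths begun in F, a medium with FGF2, on irradiated mouse embryonic fibroblasts, and they were passaged manually. FLB2i held LIF, FGF2, the BMP4 protein and inhibitors of GSK3A and TGFB1. FL6i held FGF2, LIF and 6 inhibitors, against GSK3A, MAP2K1, BMP, TGFB1 and the kinases MAPK8 and MAPK14. Per the labels, cells from F were moved into FL6i at culture day 8, and some of these went on to FLB2i at day 18, so the FLB2i cells had also been held in FL6i. There was 1 line per medium and 1 sample per line and passage, so line and medium cannot be told apart, and neither can passage and the single culture sampled at it. The later samples were also at different passages, 6 in FLB2i and 9 in FL6i.

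Pluripotent cells are held by a network of transcription factors that external signals keep active. In pig cells LIF, FGF, TGFB and BMP signals all bear on that network, and inhibitors of kinases are used to keep differentiation signals low. When the network is lost, epiblast-like cells can take a neural route, in which SOX and HES factors keep progenitors dividing, DLL ligands mark the cells about to become neurons, and glial genes such as GFAP come on late.

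Reads on genes numbered 21232806 and 17926620 at passages 3 and 6 in FLB2i and 15179200 and 6193659 at passages 3 and 9 in FL6i, so the FL6i sample of passage 9 was the shallowest of the 14. In it 3 reads stood for 7.86 normalized counts, against 2.31 to 3.15 in the other 3 samples. In bulk RNA, fewer cells of a type and less RNA per cell cannot be told apart. Whether RNA from the mouse feeder cells added to the counts was not tested.

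Several markers of pluripotent cells were low in all 4 samples, at both passages. NANOG, a core factor of the pluripotency network, was at 24.6 and 20.7 normalized counts in FLB2i and at 15.7 and 7.86 in FL6i, against 178 to 343 in the outgrowths and the lines kept in F. LIN28A, an RNA-binding protein of pluripotent cells, was at 0 to 32.3 in the 4 samples against 4975 to 5798 there. CDH1 and EPCAM, which hold epithelial cells together, were at 16.8 to 125 and at 9.85 to 93.1, against 9284 to 12401 and 6158 to 8981. POU5F1, SOX2 and SALL4 were not analysed here. NANOG was also low in the Epi-piPSC lines, at 25.9 to 36.9 in FLB2i and at 0.965 to 0.999 in FL6i. Transcripts known from neural cells were high in the 4 samples. PAX6, a neural progenitor factor, was at 205 to 1666 normalized counts (0 to 4.92 in the outgrowths and lines in F), TUBB3, the tubulin of neurons, at 15324 to 33041 (1797 to 2024), and DCX, a protein of young neurons, at 1151 to 10906 (40.3 to 145). Some of them were also high in the Epi-piPSC lines: TUBB3 was at 15496 to 17179 and PAX6 at 40.0 to 206 in Epi-piPSC-FL6i, and NES at 12724 to 13142 in Epi-piPSC-FLB2i, against 7034 to 22134 in the 4 samples, while DCX was at 13.0 to 303 in the Epi-piPSC lines. GATA4 of endoderm and CDX2 of trophectoderm were near 0, at 0 to 5.24 and at 0 to 0.769, while other genes of those lists were not: GATA3 was at 80.8 and 165 in FLB2i and at 0 and 13.1 in FL6i, KRT8 at 77.8 to 442, ONECUT1 at 29.6 to 224 and GATA6 at 0 to 55.0. EPCAM was also low in Epi-piPSC-FLB2i, at 106 to 111. ALPL, an alkaline phosphatase, was at 580 in FLB2i and 1068 in FL6i at passage 3, against 870 to 1217 in pESCLC-F and 3474 to 3751 in pESCLC-primary. The summed pluripotency list was 17340 and 22390 in FLB2i, against 16903 to 18074 in Epi-piPSC-FLB2i. It was 6906 to 7932 in FL6i and 40325 to 50174 in the outgrowths and lines in F. At the RNA level the embryonic stem cell-like label therefore goes against NANOG, LIN28A, CDH1 and EPCAM, and pESCLC is used below only as the name the labels give. The paper reports that staining for POU5F1, NANOG, SOX2 and alkaline phosphatase lasted in both media with no clear loss. Its RNA heatmap had POU5F1 and NANOG, but not SOX2, lower in these media than in the outgrowths. Protein was not measured here.

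Many genes differed from passage 3 in both lines, and more did in FL6i. In FLB2i 1687 genes were at least 2-fold higher at passage 6 (11.6% of those tested) and 1249 at least 2-fold lower (8.62%), 2936 in all (20.3%). In FL6i 2854 were at least 2-fold higher at passage 9 (19.7%) and 2273 lower (15.7%), 5127 in all (35.4%). For comparison, 800 to 2995 of the same genes differed by 2-fold between the duplicates of each of the other 5 groups. The fewest were in Epi-piPSC-FLB2i line B5 between passages 9 and 12 and the most in Lv-piPSC-F. The counts were 800 in Epi-piPSC-FLB2i, 803 in Epi-piPSC-FL6i, 1310 in pESCLC-primary, 1520 in pESCLC-F and 2995 in Lv-piPSC-F. The 2936 in FLB2i lay below that of Lv-piPSC-F only and well above the rest. The 5127 in FL6i lay above them all. The 2 samples of passage 3 were more alike (Pearson's r = 0.947 across genes) than either was to the later passage of its own line (0.908 in FLB2i and 0.823 in FL6i) or than the later samples were to each other (0.823). These values describe 4 libraries that share 1 normalization, and genes are not independent replicates.

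The 2 lines shared part of the change. At least 2-fold higher in both were 1011 genes (6.97%), which was 59.9% of those higher in FLB2i and 35.4% of those higher in FL6i. At least 2-fold lower in both were 399 genes (2.75%), 31.9% of those lower in FLB2i and 17.6% of those lower in FL6i. Opposite changes past 2-fold were found in 429 genes (2.96%), of which 303 were lower in FLB2i and higher in FL6i (2.09%) and 126 the reverse (0.869%), against 1410 past 2-fold in the same direction (9.73%). Counts of gene list members past 2-fold are given below, to be read beside these shares and those of each line. Across genes the changes of the lines had a Pearson's r of 0.41 and a Spearman's rho of 0.32. The change of Epi-piPSC-FLB2i line B5 from passage 9 to 12, which shares no sample with them, had an r of -0.06 with that in FLB2i and -0.09 with that in FL6i.

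**Figure D1:**
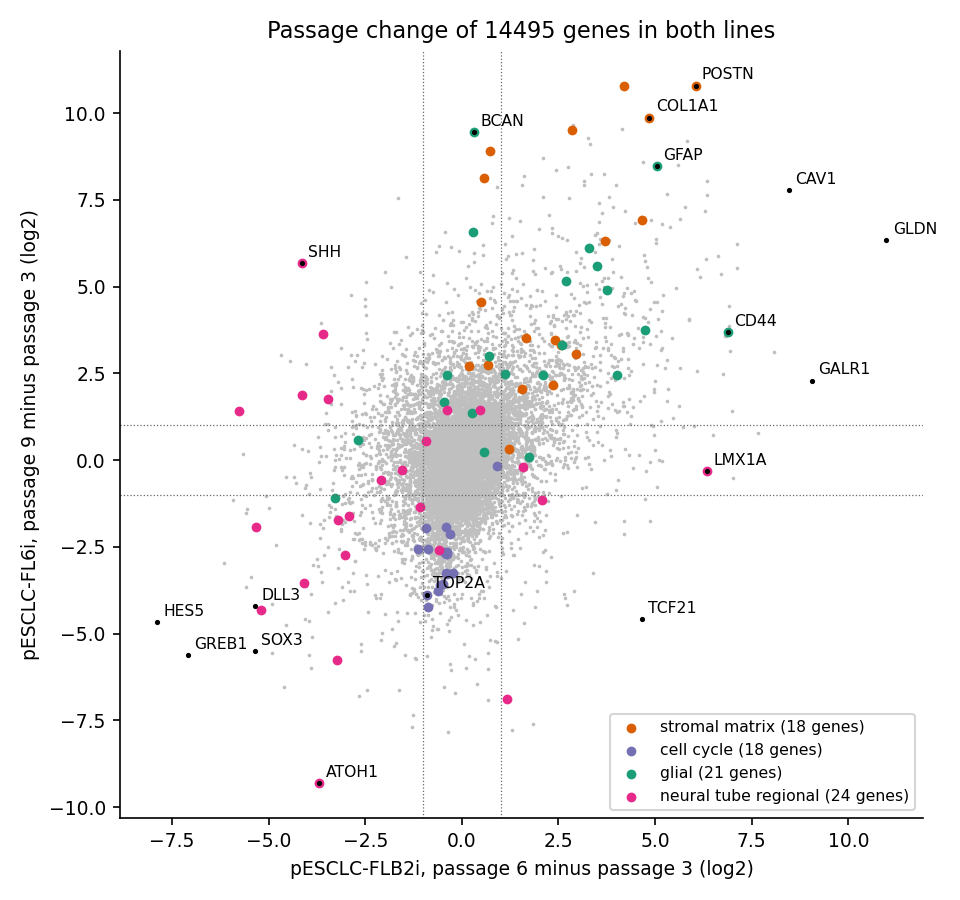
Change of each of 14495 genes from passage 3 to 6 in pESCLC-FLB2i (x axis) and from passage 3 to 9 in pESCLC-FL6i (y axis), as differences of log2(normalized count + 1), with 4 gene lists in colour and dotted lines at 2-fold. Stromal matrix and glial genes lie to the upper right, cell cycle genes sit low near the centre of the x axis, and HES5, GREB1 and SOX3 lie to the lower left.

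A test of the mean change over both lines had 1 residual degree of freedom, which is the disagreement of the lines. Paired by line, limma called 0 of 14495 genes at an adjusted p of 0.05 (0%), with 1795 at an unadjusted p under 0.05 (12.4%). The edgeR quasi-likelihood test also called 0, with 1523 at an unadjusted p under 0.05 (10.5%), while DESeq2 called 740 (5.11%), 568 higher (3.92%) and 172 lower (1.19%). Each line was therefore also tested alone with limma, the spread coming from the duplicates of the other 5 groups. By that test 857 genes changed in FLB2i (5.91%), 518 up (3.57%) and 339 down (2.34%), and 3566 changed in FL6i (24.6%), 1686 up (11.6%) and 1880 down (13.0%). Without Lv-piPSC-F, whose duplicates differed most, the count in FLB2i was 1729, and 32 of the 151 named genes in FLB2i and 17 in FL6i that had not been called then were, among them COL1A1, COL3A1, INHBA, POSTN and GFAP in FLB2i. Called in both lines were 299 genes higher in both (2.06%), 171 lower in both (1.18%) and 39 with opposite changes (0.269%). Below, rose and fell are used for genes called by this test in the line named, at an adjusted p of at most 0.05. It assumes that the lone samples vary like the duplicates elsewhere, and those differ in passage or line, so the p-values measure that spread and not the spread of cultures of 1 line at 1 passage.

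The genes with the largest increases in both lines are described first. CAV1, the coat protein of caveolae (chromosome 18, 29648120 to 29682451 on Sscrofa11.1), was at 1.54 and 896 normalized counts at passages 3 and 6 in FLB2i and at 9.44 and 2313 at passages 3 and 9 in FL6i. The early value in FLB2i was 2 reads, and the ratio there was 582 (95% counting interval 161 to 4814); in FL6i it was 245. CAV1 was called in both lines by limma (adjusted p = 2.03e-05 and 1.10e-05), while its adjusted p in the paired test was 0.146, the lowest value in that test, which many other genes shared. EFEMP1, a fibulin of the matrix (chromosome 3), was at 35.4 and 2947 in FLB2i and at 23.1 and 6329 in FL6i, a rise of 6.34 ± 0.41 and 8.04 ± 0.41 on the log2 scale (SE; limma, adjusted p = 0.000525 and 2.12e-05). Both passage 3 samples were low and both later samples high for each of these genes.

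FBLN5, an elastic fibre protein (chromosome 7), was at 0 and 80.8 normalized counts in FLB2i, at least 35.0-fold higher, and at 1.05 and 411 in FL6i. GLDN, gliomedin of the node of Ranvier (chromosome 1), was at 4.62 and 11378 in FLB2i and at 1.05 and 165 in FL6i, so its later level was far higher in FLB2i, though the 2 rises were not called different (difference -4.64 ± 2.38 log2, limma adjusted p = 0.294). TM4SF1, a membrane protein, went from 5.39 to 888 and from 5.24 to 472. THRB, a thyroid hormone receptor, went from 3.08 to 403 in FLB2i and from 0 to 57.6 in FL6i, at least 18.3-fold. All 4 rose in both lines (limma adjusted p between 0.00119 and 0.0282). MFAP4, a microfibril protein, rose in FL6i from 1.05 to 296 and was at 2.31 and 258 in FLB2i, which was not called there (limma adjusted p = 0.105).

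The genes that fell most in both lines included factors of neural progenitors and patterning. SOX3, a SoxB1 factor of the early neural plate (chromosome X, 115017704 to 115020601), was at 361 and 7.88 normalized counts in FLB2i and at 993 and 21.0 in FL6i, with changes of -5.35 ± 0.88 and -5.50 ± 0.88 on the log2 scale (SE; limma adjusted p = 0.0136 and 0.00364). GREB1, a hormone-responsive gene (chromosome 3), was at 803 and 4.93 in FLB2i and at 825 and 15.7 in FL6i, 163-fold and 52.5-fold lower at the later passage. BARHL1, a factor of dorsal hindbrain neurons, fell from 108 to 1.97 and from 547 to 26.2, and FOXA1, a pioneer factor of endoderm and floor plate, from 45.4 to 0.985 and from 168 to 5.24. USH1G, an Usher protein, fell from 23.1 and from 91.2 to 0 reads in both, at least 7.81-fold and 11.6-fold. The identifier ENSSSCG00000039815, which had no symbol, fell from 29.2 and 46.1 to 0. In each case both later samples lay below both early ones.

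**Figure D2:**
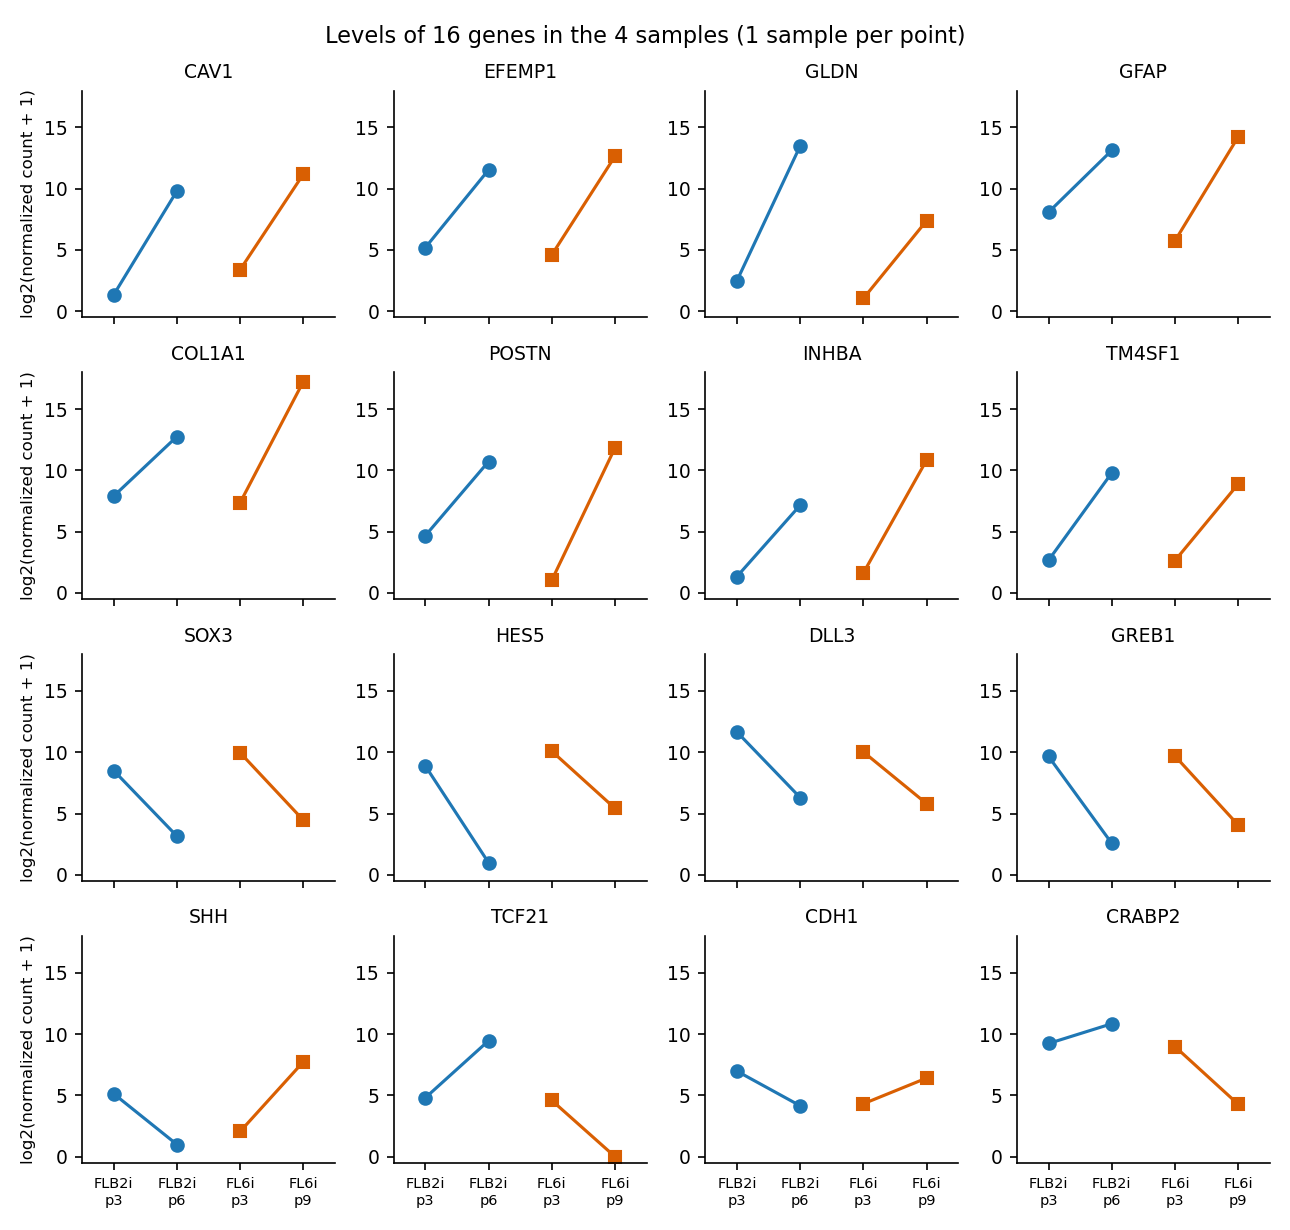
Levels of named genes in the 4 samples, as log2(normalized count + 1), with circles for pESCLC-FLB2i at passages 3 and 6 and squares for pESCLC-FL6i at passages 3 and 9; each point is 1 sample. The first and second rows hold genes higher in both later samples, the third row genes that fell in both lines, and the fourth row genes whose changes had opposite directions.

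Notch signalling passes between neighbouring cells: DLL and JAG ligands bind NOTCH receptors, whose cleaved part acts with RBPJ on the HES and HEY genes. In both lines the ligand DLL3 fell, from 3211 to 77.8 normalized counts in FLB2i and from 1041 to 55.0 in FL6i (limma adjusted p = 0.0113 and 0.00881). DLL1 was 6.83-fold and 4.26-fold lower, at 3539 and 518 and at 2709 and 637, but was called in neither line (adjusted p = 0.222 and 0.230). LFNG, a glycosyltransferase that tunes the receptors, fell from 1727 to 211 in FLB2i and from 2677 to 1142 in FL6i, and the fall was larger in FLB2i (difference 1.80 ± 0.39 log2, adjusted p = 0.0348).

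The target genes moved in both directions. HES5 (chromosome 6) fell from 470.1 to 0.985 normalized counts in FLB2i, where the later value was 1 read and the ratio 477 (95% counting interval 85.3 to 18874), and from 1088 to 41.9 in FL6i, 25.9-fold. HEYL was at 10.0 and 19.9 at passage 3 and at 0 in both later samples, a fall called in FL6i only (limma adjusted p = 0.0241; 0.126 in FLB2i), and the difference between the lines was not called (0.805). HES1 rose instead, from 204 to 737 in FLB2i and from 223 to 508 in FL6i (limma adjusted p = 0.0194 and 0.0368). HEY2 was at 39.2 and 422 and at 21.0 and 83.8, called in neither line (adjusted p = 0.0680 and 0.153). Of the 14 Notch genes tested (17 listed, 14 in the table), 2 were at least 2-fold higher and 5 at least 2-fold lower in both lines (6.97% and 2.75% over all genes). Limma called 2 up and 3 down in FLB2i (3.57% and 2.34% over all genes) and 2 up and 4 down in FL6i (11.6% and 13.0%).

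Since HES5 and HEYL went down while HEY2 was higher, the 250 bases before the RefSeq gene start on Sscrofa11.1 were read for them, with the letters GTGGGAA, the core at which RBPJ binds, in capitals on either strand (TTCCCAC on the other). HES5 is on the minus strand, chr6:64410542-64410791, HEYL on the minus strand, chr6:95459598-95459847, and HEY2 on the minus strand, chr1:37231322-37231571. All are given 5′ to 3′ along the gene.
HES5: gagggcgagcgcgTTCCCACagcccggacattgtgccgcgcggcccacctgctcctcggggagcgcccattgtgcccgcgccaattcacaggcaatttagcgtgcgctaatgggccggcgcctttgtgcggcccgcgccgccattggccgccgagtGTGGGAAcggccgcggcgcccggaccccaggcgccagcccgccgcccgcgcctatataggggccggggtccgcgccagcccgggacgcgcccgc
HEYL: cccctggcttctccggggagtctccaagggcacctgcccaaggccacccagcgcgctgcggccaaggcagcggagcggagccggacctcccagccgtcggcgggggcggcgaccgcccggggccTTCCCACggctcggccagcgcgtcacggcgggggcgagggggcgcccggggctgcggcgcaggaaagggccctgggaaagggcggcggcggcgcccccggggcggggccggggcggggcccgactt
HEY2: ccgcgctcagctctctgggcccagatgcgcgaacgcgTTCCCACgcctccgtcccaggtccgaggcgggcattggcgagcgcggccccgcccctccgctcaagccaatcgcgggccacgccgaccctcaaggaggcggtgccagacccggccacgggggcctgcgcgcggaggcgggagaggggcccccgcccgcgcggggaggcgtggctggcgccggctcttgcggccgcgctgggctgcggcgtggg
The letters stood 2 times before HES5 and 1 time before HEYL and HEY2, and 5.28% of 19559 protein-coding genes held them in the same window, 0.205% at least 2 times. The window before the annotated start of HES1 held none, but unlike those above it ended in a run of the letter a. Whether HES1 is transcribed from that start was not tested, so copies of the letters elsewhere are not excluded. Genes that fell and a gene that was higher both carried the letters, which describe the window and no binding.

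Matrix genes of stromal cells were higher in both later samples. All 18 stromal matrix genes in the table were tested (20 listed): 13 were at least 2-fold higher in FLB2i, 17 in FL6i and 12 in both, none was lower, and the medians of the change were 2.38 and 4.04 on the log2 scale, beside -0.03 and 0.03 over all genes. By limma 7 rose in FLB2i (3.57% over all genes) and 15 in FL6i (11.6%). Over all genes 11.6% were at least 2-fold higher in FLB2i, 19.7% in FL6i and 6.97% in both. COL1A1, a chain of type I collagen (chromosome 12), was at 239 and 6951 normalized counts in FLB2i and at 165 and 155568 in FL6i; it rose in FL6i (adjusted p = 0.0372) and was not called in FLB2i (0.393), with an SE of 2.83 on the log2 scale for a change in 1 line. COL3A1 was at 258 and 4721 in FLB2i and at 29.4 and 53973 in FL6i, called in neither (adjusted p = 0.584 and 0.0581). FN1, fibronectin, rose from 4414 to 26183 and from 1791 to 17917 (adjusted p = 0.0434 and 0.00549), and SPARC, a collagen-binding protein, from 7443 to 23635 and from 4553 to 52432, more in FL6i (difference 1.86 ± 0.33 log2, adjusted p = 0.0173).

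The proteoglycans that define fibroblasts were high in 1 of the 4 samples, the later one in FL6i. Outside them DCN was at 280 to 309.9 in pESCLC-primary, and LUM at 52.5 to 186 there and at 144 to 204 in Epi-piPSC-FL6i. DCN, decorin, was at 6.92 and 10.8 normalized counts in FLB2i and at 1.05 and 571 in FL6i, and LUM, lumican, at 29.2 and 49.3 and in FL6i at 2 reads and then 1480.2 normalized counts. Both rose in FL6i (limma adjusted p = 0.0133 and 0.0195) and neither was called in FLB2i, but the differences between the lines were not called either (0.118 and 0.155). POSTN, periostin, was at 24.6 and 1692 in FLB2i and at 1.05 and 3639 in FL6i, and rose in FL6i (adjusted p = 0.0377; 0.326 in FLB2i). ACTA2, the actin of smooth muscle and myofibroblasts, was at 111 and 156 in FLB2i and rose from 156 to 3720.1 in FL6i, a called difference (4.08 ± 0.99 log2, adjusted p = 0.0486). VIM, the intermediate filament of mesenchyme and neural progenitors, rose from 45429 to 106261 in FLB2i and was at 36593 and 45610.5 in FL6i. The summed level of the stromal list was 65312 and 220529 in FLB2i and 48551 and 438665 in FL6i, against 340135 to 466120 in the outgrowths and the lines in F.

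Of 30 collagen genes tested (37 in the table), 18 were at least 2-fold higher and 2 at least 2-fold lower in both lines. Over all genes 6.97% were higher and 2.75% lower in both. The median change of the collagen genes was 1.90 in FLB2i and 1.89 in FL6i. COL12A1, a fibril-associated collagen, rose from 939 to 22712 and from 448 to 4207 (limma adjusted p = 0.00423 and 0.00481). COL5A1, which starts fibril assembly, rose from 1509 to 7675 and from 1605 to 7236. COL6A3 was at 34.6 and 256 in FLB2i and at 0 and 726 in FL6i, at least 231-fold higher there. COL18A1, a basement membrane collagen, fell from 2658 to 461 and from 2508 to 427, with changes of -2.52 ± 0.21 and -2.55 ± 0.21 on the log2 scale (adjusted p = 0.000975 and 0.000156), nearly the same in the 2 lines.

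Glial genes were also higher at the later passages. Of 21 glial genes tested (27 listed, 25 in the table), 12 were at least 2-fold higher in FLB2i, 17 in FL6i and 11 in both. These shares were 11.6%, 19.7% and 6.97% over all genes. The median changes of the glial genes were 1.74 and 3.00. Limma called 5 up and 1 down in FLB2i (3.57% and 2.34% over all genes) and 13 up in FL6i (11.6%). The summed level of the glial list was 20500 and 83847 in FLB2i and 23638 and 113599 in FL6i. It was 75344 to 138985 in the outgrowths and lines in F, so both later sums lay within that range. GFAP, the intermediate filament of astrocytes (chromosome 12), was at 269 and 8860.3 normalized counts in FLB2i (adjusted p = 0.0943) and rose from 52.4 to 18931 in FL6i (0.00515), against 37.2 to 81.6 in the outgrowths and lines in F. CLU, clusterin, rose from 1070.2 to 28782 and from 1175 to 15742, and TNC, tenascin C of the glial matrix, from 535 to 7246 and from 535 to 16062 (all adjusted p at most 0.00246). In the outgrowths and lines in F, CLU was at 3984 to 15703 and TNC at 1329 to 12383. CD44, a hyaluronan receptor, rose in both, from 16.9 to 2106 and from 17.8 to 244, more in FLB2i (difference -3.18 ± 0.64 log2, adjusted p = 0.0263).

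Some glial markers were high only in the FL6i sample of passage 9 among the 4. BCAN, brevican of the perineuronal matrix, was at 9.23 and 11.8 in FLB2i and at 3.15 and 2924 in FL6i, where the early value was 3 reads and the ratio 929 (95% counting interval 317 to 4513), and the lines differed (9.14 ± 1.47 log2, limma adjusted p = 0.0110). AQP4, the water channel of astrocyte feet, was at 0.769, 1.97, 0 and 783 in the order FLB2i passages 3 and 6 and FL6i passages 3 and 9. OLIG2, an oligodendrocyte lineage factor, was at 0, 0, 1.05 and 31.4 in that order. AQP4 and OLIG2 had 10 normalized counts in 1 sample only, so they were not tested. MBP, a myelin protein, was at 3.08 and 9.85 in FLB2i and at 5.24 and 34.1 in FL6i, and was not tested either.

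Neuronal transcripts were found at both passages of both lines. Of 23 neuronal genes tested (26 listed, 24 in the table), 1 was at least 2-fold higher and 10 lower in FLB2i, and 11 were higher and 3 lower in FL6i. Over all genes 11.6% were higher and 8.62% lower in FLB2i, and 19.7% higher and 15.7% lower in FL6i. The medians of the neuronal genes were -0.50 and 0.79. SYT1, the calcium sensor of synaptic vesicles, was at 370.1 and 789 in FLB2i and rose from 301 to 2958 in FL6i (limma adjusted p = 0.00829). ELAVL4, an RNA-binding protein of neurons, fell from 1326 to 342 in FLB2i and was at 1339 and 2140.4 in FL6i, and the lines differed (2.63 ± 0.62 log2, adjusted p = 0.0452). CNTN2, an axonal adhesion protein, fell from 16393 to 3255 in FLB2i and was at 10726 and 7155 in FL6i. DCX was at 3021 and 1151 in FLB2i and at 4047 and 10906 in FL6i, with no call in either line or for the difference (adjusted p = 0.0885). TUBB3 was at 28281 and 15324 and at 31234 and 33041, called in neither. NES, the filament of neural progenitors, was at 18651 and 22134 in FLB2i and fell from 18921 to 7034 in FL6i (adjusted p = 0.00736).

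Of 24 factors that pattern the neural tube tested (30 listed, 29 in the table), 16 were at least 2-fold lower and 4 higher in FLB2i (median -2.97), and 12 were lower and 7 higher in FL6i (median -0.86). Of these, 9 were lower in both lines, 5 were lower in FLB2i and higher in FL6i, and 2 the reverse. Over all genes these last shares were 2.75%, 2.09% and 0.869%. In FLB2i 8.62% of all genes were lower and 11.6% higher, and in FL6i 15.7% were lower and 19.7% higher. ATOH1, a factor of the rhombic lip, was at 292 and 21.7 in FLB2i (adjusted p = 0.0969) and fell from 632 to 0 in FL6i, at least 80.5-fold. PAX7, a dorsal neural tube factor, was at 1133 and 139 and at 1151 and 170.3, called in neither line by limma (adjusted p = 0.0984 and 0.0578). GLI2, an effector of Hedgehog signalling, fell from 432 to 9.85 in FLB2i and from 1241 to 327 in FL6i, more in FLB2i (difference 3.40 ± 0.71 log2, adjusted p = 0.0293). LMX1A, LMX1B and WNT1, which mark the roof plate or the midbrain border, differed between the lines. LMX1A rose from 5.39 to 519 in FLB2i and was at 352 and 283 in FL6i, LMX1B fell from 868 to 48.3 in FLB2i and was at 571 and 2096 in FL6i, and WNT1 was at 283 and 641 in FLB2i and fell from 116 to 0 in FL6i, at least 14.8-fold (adjusted p of the differences 0.0352, 0.0202 and 0.0203).

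HOX genes mark position along the body axis, and those of the posterior groups were higher in sum in FL6i than in FLB2i at both passages. A sum does not speak for each gene. All 34 HOX genes summed to 13944 to 14332 normalized counts in FLB2i and to 21380 to 33330 in FL6i. In the Epi-piPSC lines the order was the reverse, 21656 to 23418 in FLB2i and 1221 to 1250 in FL6i. Tests covered 26 of the 34 genes. The 12 of paralogue groups 6 to 10, which lie further back on the axis, summed to 1907 and 3947 normalized counts in FLB2i and to 13292 and 12934 in FL6i. HOXA9 was at 57.7 and 115 in FLB2i and at 3885 and 1656 in FL6i, and HOXC9 at 79.2 and 438 and at 1059 and 1116. The 14 of groups 1 to 5 summed to 12036 and 10384 in FLB2i and to 20031 and 8375 in FL6i. In FL6i 12 of them were at least 2-fold lower at passage 9, with a median change of -1.61, against 2 lower in FLB2i and a median of -0.29. Over all genes 15.7% were lower in FL6i and 8.62% in FLB2i. HOXB1, the hindbrain member, fell in both lines from 13.8 and 62.9 to 0 (limma adjusted p = 0.0204 and 0.000958).

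**Figure D3:**
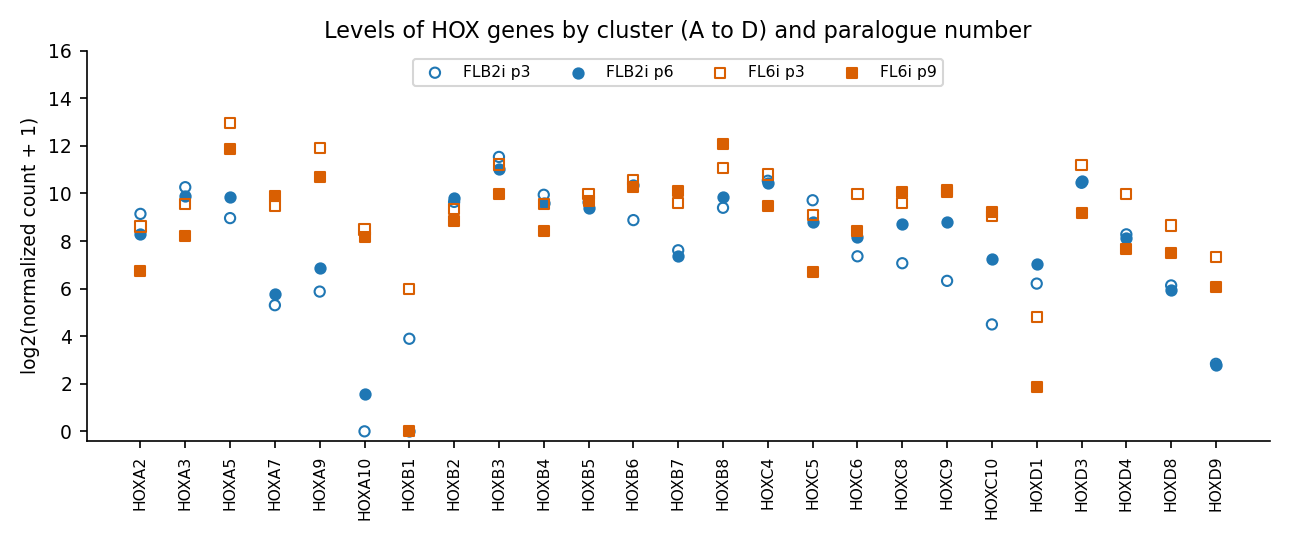
Levels of HOX genes, as log2(normalized count + 1), ordered by cluster and paralogue number; open and filled circles are pESCLC-FLB2i at passages 3 and 6, open and filled squares pESCLC-FL6i at passages 3 and 9. The squares lie above the circles for HOXA7, HOXA9, HOXA10 and HOXD9 at both passages.

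Pluripotency genes moved in both directions. Of 34 listed, 24 were in the table and 15 were tested. Among those tested 5 were at least 2-fold lower and 3 higher in both lines (2.75% and 6.97% over all genes). Limma called 0 up and 6 down in FLB2i (3.57% and 2.34% over all genes) and 4 up and 6 down in FL6i (11.6% and 13.0%). LIN28B, the partner of LIN28A in blocking let-7 processing, fell from 577 to 144 normalized counts in FLB2i and from 473 to 21.0 in FL6i, more in FL6i (difference -2.44 ± 0.21 log2, adjusted p = 0.00140). LIN28A fell from 32.3 to 0.985 and from 23.1 to 0. MYCN fell from 870.2 to 257 and from 979.6 to 238 (adjusted p = 0.0231 and 0.00406), and ALPL, the alkaline phosphatase used as a stain for stem cells, from 580.1 to 45.3 and from 1068 to 113 (0.0405 and 0.0233). KLF4 was at 15.4 and 34.5 in FLB2i and rose from 21.0 to 1653 in FL6i (adjusted p = 0.00435), and KLF5 was at 58.5 and 294 and rose in FL6i from 6.29 to 304 (0.000781); both factors also act in stromal and epithelial cells. CDH1 moved in opposite directions, from 125 down to 16.8 in FLB2i and from 18.9 up to 83.8 in FL6i (adjusted p = 0.00373 and 0.00315; difference 4.92 ± 0.46 log2, 0.00200). NANOG was called in neither line (0.917 and 0.377).

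Genes of the cell cycle fell in FL6i far more than in FLB2i. All 18 in the table were tested (24 listed): 17 were at least 2-fold lower at passage 9 in FL6i, with a median change of -2.71, and 1 was at least 2-fold lower at passage 6 in FLB2i, with a median of -0.44. Over all genes 15.7% were at least 2-fold lower in FL6i and 8.62% in FLB2i. Limma called 16 of the 18 down in FL6i (13.0% over all genes) and 3 in FLB2i (2.34%). Between the lines 14 of the 18 differed, all lower in FL6i, beside 6.86% of all genes that differed. TOP2A, the topoisomerase of dividing cells, was at 19664 and 10514 in FLB2i and at 14169.6 and 961 in FL6i, with falls, both called, of -0.90 ± 0.16 and -3.88 ± 0.16 on the log2 scale (SE; adjusted p = 0.0175 and 1.36e-05). CCNB1, the mitotic cyclin, was at 3359 and 2200.3 in FLB2i and fell from 2189.9 to 159.8 in FL6i. CDK1, its kinase, was at 1950.4 and 1668 and fell from 1245 to 128 in FL6i, and MCM2, of the replicative helicase, was at 4109 and 2961 and fell from 5083 to 804. CCND2 was the exception, at 699 and 1316 and at 760.4 and 681. UHRF1, which brings DNMT1 to replicated DNA, fell from 5621 to 2825 in FLB2i and from 5554 to 438 in FL6i, and DNMT1 was at 4599 and 3608 and fell in FL6i from 4300.2 to 1797; both differed between the lines (adjusted p = 0.00251 and 0.0304). The falls in FL6i were measured against the shallowest sample, where the 961 normalized counts of TOP2A were 367 reads.

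MAP2K1 is among the kinases inhibited in FL6i. Several genes that MAP kinase signalling induces were near 0 at passage 3 in FL6i and higher at passage 9. Whether the inhibitor bears on these values was not tested. All 21 FGF and MAPK genes in the table were tested (23 listed): 14 were at least 2-fold higher and 1 lower in FL6i (median 1.54), and 6 higher and 1 lower in FLB2i (median 0.57). Among all genes 19.7% were higher and 15.7% lower in FL6i, and 11.6% higher and 8.62% lower in FLB2i. Limma called 15 up and 1 down in FL6i (11.6% and 13.0% over all genes) and 1 up and 1 down in FLB2i (3.57% and 2.34%), the latter near the shares over all genes. ETV5, an FGF-induced factor, was at 966 and 1206 in FLB2i and at 3.15 and 259 in FL6i, where 3 reads became 99 (ratio 82.4, 95% counting interval 27.4 to 407). SPRY4, a feedback inhibitor, was at 445 and 987 and at 3.15 and 228 in FL6i, 3 reads and 87. FOS was at 102 and 194 and rose from 17.8 to 4388 in FL6i. For these 3 the change differed between the lines (5.65 ± 0.48, 4.64 ± 1.06 and 6.95 ± 1.09 log2, limma adjusted p = 0.00140, 0.0401 and 0.0102). EGR1 was at 190.0 and 446 and rose from 5.24 to 794 in FL6i. DUSP6, the ERK phosphatase, was at 1483 and 1398 in FLB2i and rose from 151 to 440.1 in FL6i, still below either FLB2i sample. FGFR3, a receptor, fell in both lines, from 864 to 180.3 and from 3028 to 867.

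FLB2i contained BMP4 and FL6i a BMP inhibitor, each at both passages. Of 21 BMP genes, all tested, 9 were at least 2-fold higher and none lower in FLB2i, while 6 were higher and 5 lower in FL6i. Of them, 3 were higher in FLB2i and lower in FL6i. Beside these counts, 11.6% of all genes were higher and 8.62% lower in FLB2i, and 19.7% higher and 15.7% lower in FL6i. The share of all genes higher in FLB2i and lower in FL6i was 0.869%. Whether these medium components bear on the changes was not tested. Limma called 1 up in FLB2i and 3 up in FL6i, near the shares over all genes (3.57% and 11.6%). The called gene in FLB2i was BMP7, a ligand, from 40.0 to 668 normalized counts, against 209.8 and 141 in FL6i (difference -4.59 ± 0.83 log2, adjusted p = 0.0180). The SMAD targets ID1, ID3 and MSX1 were at 884 and 3296, 1818 and 4845, and 1122 and 4717 in FLB2i and at 1324 and 605, 2359 and 1928, and 2232 and 1006 in FL6i. None of these 3 was called in a line or for the difference (adjusted p of the differences 0.121, 0.348 and 0.0778). GREM1, a secreted BMP antagonist, was at 5.39 and 92.6 in FLB2i and rose in FL6i from 3.15 to 228.

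Both media inhibit GSK3A, which stabilises beta-catenin, and several WNT targets fell in FL6i but not in FLB2i. Of 20 WNT genes tested (23 listed, 22 in the table), 10 were at least 2-fold lower in FL6i and 5 in FLB2i, 3 of them in both. Over all genes these shares were 15.7%, 8.62% and 2.75%. Limma called 2 up and 5 down in FL6i, beside 11.6% and 13.0% of all genes. In FLB2i it called 2 up and 1 down, beside 3.57% and 2.34%. SP5, a direct target, was at 108 and 86.7 in FLB2i and fell from 211 to 2.62 in FL6i, 201 reads to 1 (ratio 80.5, 95% counting interval 14.3 to 3194), and TCF7 was at 372 and 478 and fell from 359 to 39.3. Both differed between the lines (limma adjusted p = 0.0176 and 0.0123). LEF1 was at 76.9 and 107 and fell in FL6i from 156 to 5.24 (adjusted p = 0.0119; 0.0686 for the difference). AXIN2 was at 3007 and 2502 and at 2419.6 and 1153, called in neither line. LGR5, an R-spondin receptor, fell from 65 reads to 0 in FLB2i, at least 16.9-fold, and was at 125 and 141 in FL6i. DKK1, a secreted WNT antagonist, rose in both, from 17.7 to 635 and from 0 to 15.7, and WNT5A, a ligand outside the beta-catenin route, from 43.1 to 6125 and from 7.34 to 385 (adjusted p = 0.0140 and 0.0122).

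**Figure D4:**
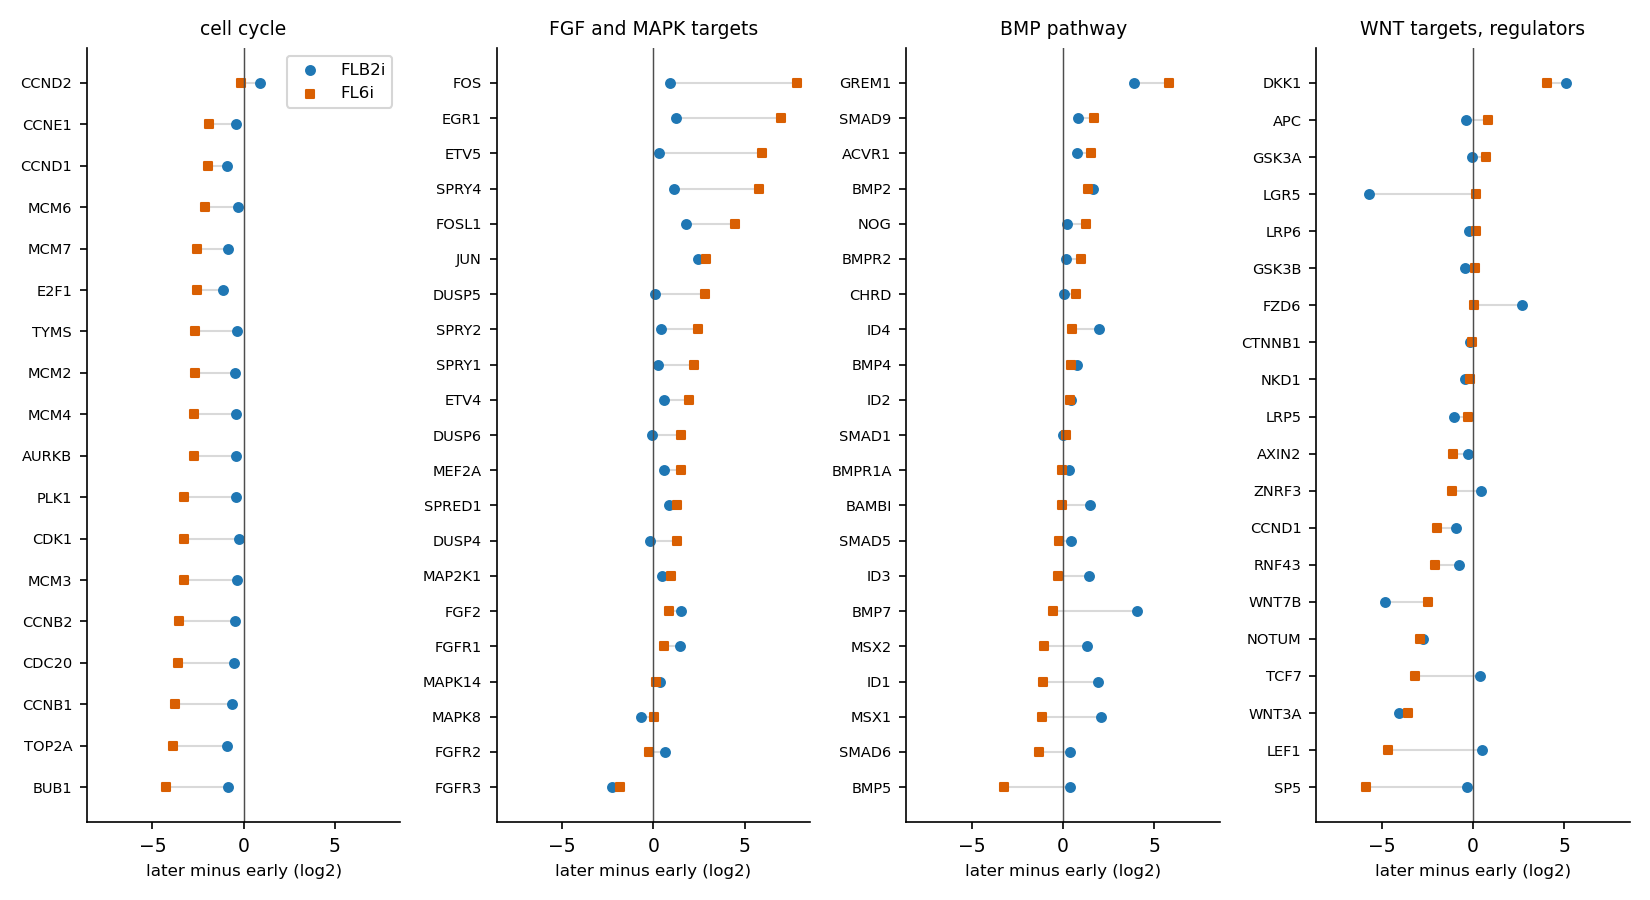
Later minus early change (log2) of each tested gene of 4 lists in pESCLC-FLB2i (circles, passage 6 minus 3) and pESCLC-FL6i (squares, passage 9 minus 3), ordered by the change in FL6i. Except CCND2, cell cycle genes lie below 0 in FLB2i (median of the list -0.44) and at -1.91 or lower in FL6i. FOS, EGR1, ETV5 and SPRY4 lie above 5 in FL6i.

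TGFB1 was inhibited in both media. Of 19 TGFB and Nodal genes tested (21 listed, 20 in the table), 9 were at least 2-fold higher and 1 lower in both lines (6.97% and 2.75% over all genes). Limma called 2 up and 2 down in FLB2i (3.57% and 2.34% over all genes) and 5 up and 2 down in FL6i (11.6% and 13.0%). TGFBR2, the type II receptor, rose in both, from 63.9 to 401 and from 89.1 to 597 (adjusted p = 0.0165 and 0.00446). INHBA, the activin subunit, was at 1.54 and 142 in FLB2i and at 2 reads and then 1823 normalized counts in FL6i and was called in neither (limma adjusted p = 0.355 and 0.0675). FST, follistatin, which binds activin, fell in FLB2i from 10.0 to 0.985 and rose in FL6i from 7.34 to 291 (difference 7.60 ± 0.49 log2, adjusted p = 0.000807). TGFBI rose in FLB2i from 529 to 2557 and was at 873 and 668 in FL6i (difference -2.65 ± 0.32 log2, 0.00414).

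LIF was present in both media. Of its 15 pathway genes tested (16 listed), 5 were at least 2-fold higher and none lower in both lines (6.97% and 2.75% over all genes). STAT6 rose from 236 to 856 and from 134 to 406 (limma adjusted p = 0.0350 and 0.0227), and SOCS3, the feedback inhibitor, was at 1047 and 2636 and at 947 and 2429, 2.52-fold and 2.56-fold higher but called in neither (0.161 and 0.0734).

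CDKN2B, the p15 inhibitor, was at 2.31 and 32.5 normalized counts in FLB2i and rose in FL6i from 1.05 to 31.4, 1 read to 12 (ratio 30.0, 95% counting interval 4.43 to 1281). CDKN1A, p21, was at 108 and 460.2 and at 108 and 346, called in neither line. CDKN1C, the imprinted p57, was lower, at 903 and 82.8 and at 628 and 199, a fall called in FLB2i (limma adjusted p = 0.0109; 0.0546 in FL6i). ATF3, a stress factor, was at 66.2 and 154 and rose from 94.4 to 1331 in FL6i (difference 2.60 ± 0.57 log2, adjusted p = 0.0352), and NQO1, an antioxidant enzyme, was at 1102 and 4231 (0.0503) and rose from 197 to 1158 in FL6i (0.00617).

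Of 14 genes of low oxygen and glycolysis tested (18 listed), 3 were at least 2-fold higher and none lower in both lines (6.97% and 2.75% over all genes). Their medians were 0.05 in FLB2i and -0.21 in FL6i. NDRG1 was at 619 and 2043 in FLB2i and rose from 216 to 828 in FL6i (limma adjusted p = 0.0288). PFKFB4 was at 371 and 759 in FLB2i and rose from 234 to 576 in FL6i (limma adjusted p = 0.0482). HK2, hexokinase, was at 12726 and 12812 in FLB2i and fell from 6762 to 796 in FL6i, and ADM, adrenomedullin, was at 745 and 130.1 in FLB2i and rose from 4.20 to 128 in FL6i; both differed between the lines (limma adjusted p = 0.0245 and 0.00833). VEGFA was at 6851 and 18212 and at 1359 and 2877. Of 14 lipid and sterol genes none was past 2-fold in FLB2i and 3 were in FL6i (20.3% and 35.4% over all genes), with medians of 0.15 and -0.13. The 13 protein genes of the mitochondrial genome had medians of 0.80 in FLB2i and -0.44 in FL6i, 1 past 2-fold, and none was called in either line by limma.

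Some genes led in 1 line. GALR1, a galanin receptor, rose in FLB2i from 3.08 to 2158 normalized counts and was at 12.6 and 65.5 in FL6i, and C1QL4, a secreted C1q-like protein, fell in FLB2i from 421 to 5.91 and was at 147 and 65.5 in FL6i; neither difference was called (limma adjusted p = 0.0992 and 0.0767). ITM2A, a membrane protein, was at 3.85 and 34.5 in FLB2i and rose in FL6i from 3.15 to 3385, 3 reads to 1292 (ratio 1076, 95% counting interval 367 to 5223), a called difference (6.80 ± 1.47 log2, 0.0330). Of the falls of at least 3 on the log2 scale in FL6i, 75 were among 2517 identifiers without a symbol and 219 among 11978 with one, against 17 and 110 in FLB2i. Among those without a symbol, ENSSSCG00000020439 was at 3252 in the FL6i sample of passage 3 and at 23.1 to 37.4 in the other 3, and ENSSSCG00000019556 at 2369 and at 15.4 to 26.2. Each was high in that 1 library, so its fall rests on it.

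The genes with the largest opposite changes included TCF21, SHH, CREG2 and PAX5. TCF21, a mesenchymal factor, rose in FLB2i from 26.9 to 702 normalized counts and fell in FL6i from 23.1 to 0, at least 2.94-fold (adjusted p of the difference 0.00415). SHH, the ventral neural tube ligand, was at 33.9 and 0.985 in FLB2i, 44 reads and 1, and rose in FL6i from 3.15 to 212, 3 reads to 81 (0.0128). CREG2, a secreted glycoprotein, was at 11.5 and 0 in FLB2i and rose from 8.39 to 144 in FL6i (0.0145), and PAX5, a midbrain-hindbrain factor, was at 166 and 12.8 and at 39.9 and 508, a difference not called (0.0595). CRABP2, which carries retinoic acid, was at 599 and 1834 in FLB2i and fell from 503 to 18.3 in FL6i (difference -6.32 ± 0.65 log2, 0.00251). In all, limma called 995 genes whose change differed between the lines (6.86%), 357 higher in FL6i (2.46%) and 638 lower (4.40%), and 2205 without Lv-piPSC-F.

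Sets of genes were also taken from samples outside the 4, by a difference of at least 3 on the log2 scale between group means. Of 524 genes higher in pESCLC-primary than in the Epi-piPSC lines, 192 were at least 2-fold higher at the later passage in FLB2i (36.6%, against 11.6% of all genes) and 249 in FL6i (47.5%, against 19.7%), with median changes of 0.38 and 0.84. At least 2-fold lower were 99 of them in FLB2i (18.9%, against 8.62%) and 77 in FL6i (14.7%, against 15.7%). Of 492 genes lower in pESCLC-primary, 84 were at least 2-fold higher (17.1%) and 152 lower (30.9%) in FLB2i. In FL6i 215 of them were higher (43.7%) and 70 lower (14.2%). Of 301 genes higher in Epi-piPSC-FL6i than in Epi-piPSC-FLB2i, 167 were at least 2-fold higher in the later FL6i sample (55.5%, median 1.24). Another 30 were lower there (9.97%). In the later FLB2i sample 93 were higher (30.9%, median -0.12) and 82 lower (27.2%). Of 567 genes lower in Epi-piPSC-FL6i, 180 were higher (31.8%) and 106 lower (18.7%) in FLB2i, and 204 higher (36.0%) and 138 lower (24.3%) in FL6i. In FLB2i every set lay above the shares of all genes in both directions. In FL6i every set, opposed sets included, lay above the 19.7% of all genes that were higher. These shares are descriptions and carry no test.

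**Figure D5:**
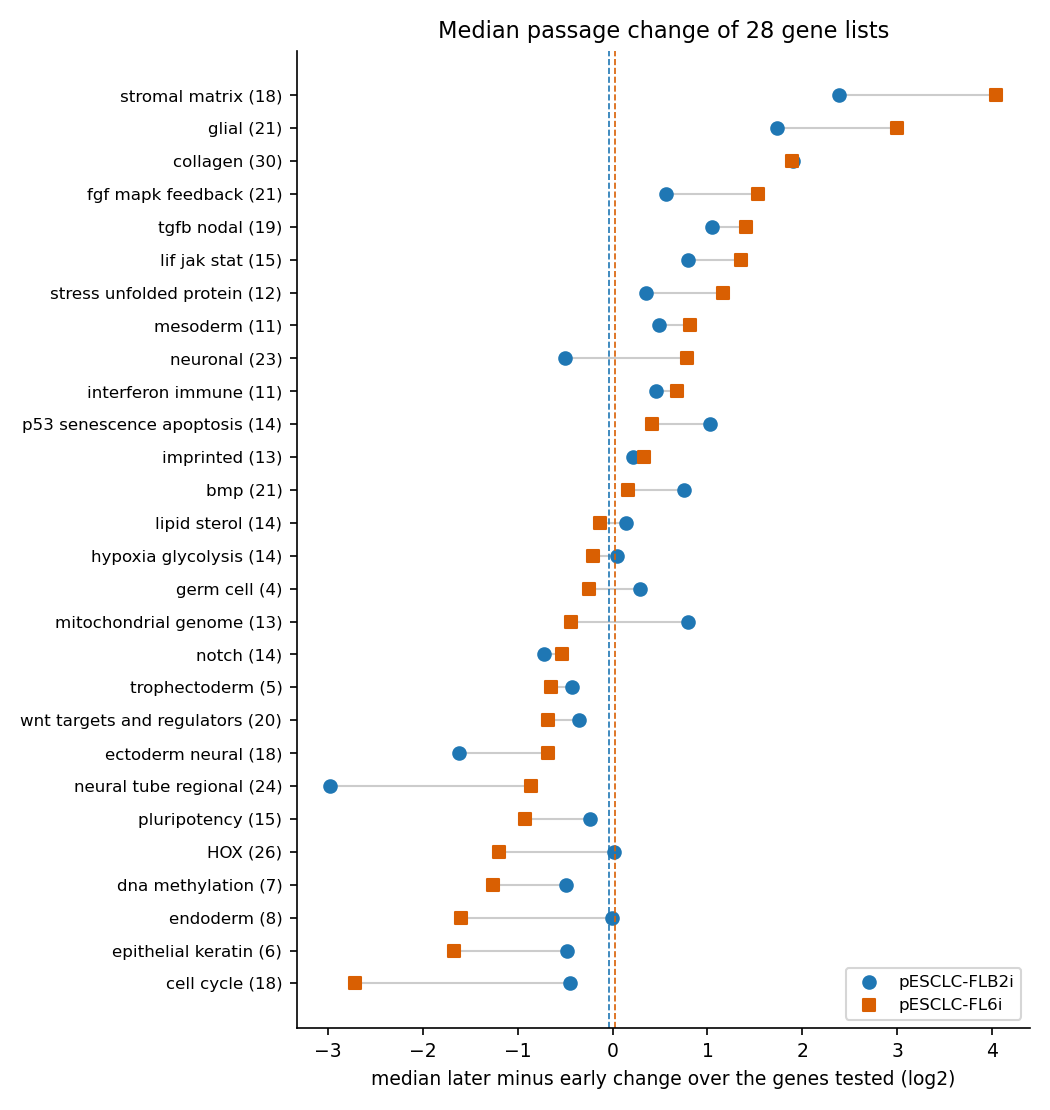
Median later minus early change (log2) of the tested genes of 28 gene lists in pESCLC-FLB2i (circles) and pESCLC-FL6i (squares), with the number tested in brackets and dashed lines at the medians of all genes, -0.03 and 0.03. Stromal matrix and glial genes have the highest medians in FL6i, and cell cycle genes the lowest, at -2.71.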

How the data were processed

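The authors mapped RNA-seq reads to Sscrofa11.1 with TopHat2 2.1.0, counted them per gene and normalized them with DESeq2 (the submitters' processing notes). The deposited values are normalized counts, a signal obtained by dividing whole reads by a size factor for each sample, and whole reads were recovered from them. Genes that reached 10 normalized counts in 2 or more samples of the 4 were tested. The main test was limma 3.58.1 (R 4.3.3) with a variance trend on log2(normalized count + 1), with line as the pair and 1 residual degree of freedom. Changes within a line and their difference were tested over all 14 samples, with 5 residual degrees of freedom from the duplicates of the other 5 groups. Adjusted p-values are Benjamini-Hochberg over all genes tested. DESeq2 1.42.0 and edgeR 4.0.16 were run on the recovered reads. The scripts were tested on simulated data in which all genes and samples of a run shared the same dispersion. The groups here differ in spread, so that test does not measure error rates in these data. Fold changes are ratios of normalized counts, and a fold against 0 reads used a floor of 3 reads. Counting intervals (95%, exact) and floors cover counting error only. RefSeq tables of Sscrofa11.1 paired 14151 of 19588 identifiers with a symbol. The authors name a stranded library kit and counting by HTSeq at its defaults, and state no strand setting. Whether overlapping and antisense genes share reads was not tested.

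Samples were paired across passages because the labels give both passages of each line. Named genes were those with the largest changes in both lines, in each line and in opposite directions, and list members past 2-fold the same way in both lines. The members and lists were chosen with earlier results of these data known. The glial, neuronal, neural tube, HOX and collagen lists, and further list members named in the text, were chosen after their values were seen. Nothing in the labels says that samples of a group came from separate cultures, so the spread may be technical in part. Some results are not reported here.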

Additional observations from a re-analysis of the deposited data

Results flagged for a closer look

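The test of the difference between the lines called 995 genes (limma over 14 samples, adjusted p at most 0.05). The values that follow are the change in FL6i minus the change in FLB2i on the log2 scale, for the named genes so called.

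The difference was positive for SHH (9.82), BCAN (9.14), CREG2 (7.60), FST (7.60), ADM (7.15), FOS (6.95), ITM2A (6.80), LMX1B (6.02), LGR5 (5.85) and ETV5 (5.65). It was also positive for CDH1 (4.92), SPRY4 (4.64), ACTA2 (4.08), GLI2 (3.40), KRT18 (3.12), ELAVL4 (2.63), ATF3 (2.60), SPARC (1.86) and LFNG (1.80).

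The difference was negative for TCF21 (-9.24), WNT1 (-8.05), ENSSSCG00000020439 (-7.58), LMX1A (-6.66), CRABP2 (-6.32), SP5 (-5.56), BMP7 (-4.59), APOA1 (-4.05), TCF7 (-3.52) and BUB1 (-3.37). It was also negative for CD44 (-3.18), CCNB1 (-3.16), HK2 (-3.09), CDK1 (-3.04), TOP2A (-2.98), UHRF1 (-2.67), TGFBI (-2.65), LIN28B (-2.44), MCM2 (-2.19), NES (-1.67) and DNMT1 (-0.91).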

How the results depend on the processing

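The paired test of the mean change over the 2 lines called 0 genes. It called 14 without the filter on low values, 740 with DESeq2 and 3474 with the spread of all 14 samples. With 1 of the 4 samples left out, only the other line has a change, so the counts, 859 to 3572, are those of that line alone (859 and 865 in FLB2i, 3564 and 3572 in FL6i), and the lone sample was assumed to vary like the duplicates of other groups. Without the replicate block, that is without pairing by line, it was 0. Leaving out Lv-piPSC-F, whose duplicates differed most, raised the count in FLB2i from 857 to 1729 and the count of differences between the lines from 995 to 2205.

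At a log2 change of at least 3 there were 319 genes higher and 127 lower in FLB2i, 558 higher and 294 lower in FL6i, 162 higher in both, 30 lower in both and 7 opposite. Without the filter 1955 genes were lower in FLB2i, 3492 in FL6i, 639 in both, and 749 were opposite, and with a minimum of 50 normalized counts 262 were opposite. TMM scaling moved the median change of all genes in FL6i from 0.03 to -0.09, and with it the changes of TUBB3 and HOXC9 in FL6i, neither called, became -0.037 and -0.043. Of the alternative values of the named genes, 3359 kept their direction and side of the threshold, 543 passed it only under the alternative, 55 lost it and 2 changed sign. The causes were not tested. The FL6i sample of passage 9 limits low genes, since 3 reads there stood for 7.86 normalized counts.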
